A study of Caenorhabditis elegans with 2 samples.

Results

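The lysozyme genes described here are lys-1 to lys-8 and ilys-3 of the nematode Caenorhabditis elegans, 9 genes chosen by name out of 16933 protein-coding genes that had at least 1 read. Their RNA 3' ends were counted in 2 libraries, both from strain JM149, grown as mixed-stage liquid cultures at 25 °C and strained to enrich adults. One library holds RNA of input nuclei, labelled mixed tissues and total RNA, and the other RNA of nuclei collected by fluorescence-activated sorting, labelled intestine and nuclear RNA. Since the molecule label differs along with the sort, the effect of one cannot be told apart from that of the other. The labels used here do not give the genotype of JM149 or the promoter behind the fluorescent mark, and stages were pooled within each culture. With 1 library per group there was no replicate check and no test between groups, so every interval below covers counting error only.

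Lysozymes are enzymes that cut the peptidoglycan of bacterial cell walls. In C. elegans, which feeds on bacteria, they serve both digestion and defence, and many are secreted by intestinal cells. The genes named lys encode lysozymes related to those of protists such as amoebae, whereas the ilys genes encode invertebrate-type lysozymes, a separate family. Work on infection and ageing in this worm has used lys-1, lys-7 and lys-8 as readouts of immune signalling, lys-7 as a target of the forkhead factor DAF-16 and lys-8 as a target of the DBL-1 (TGF-beta-like) pathway. The product of ilys-3 acts on bacteria in the pharynx and gut lumen.

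By the WBcel235 annotation, the 9 genes lie on 3 chromosomes, in clusters for most of them. On chromosome V, lys-1 (10277904 to 10279056, forward strand) ends toward lys-2 (10280307 to 10281474, reverse strand), and lys-3 (10282100 to 10283544, reverse strand) follows 625 nt further on. The gene lys-7 lies alone on the same chromosome (3481432 to 3482600, reverse strand). Chromosome IV holds lys-4 (11621429 to 11623174), lys-5 (11624252 to 11625582) and lys-6 (11626910 to 11627947) in a row on the reverse strand. It also holds ilys-3 (2464456 to 2465443, forward strand), with ilys-2 and ilys-1 downstream of it. On chromosome II, lys-8 (5586178 to 5587651, forward strand) overlaps C17G10.13 on the opposite strand, and the counts used here carry the strand. No other protein-coding gene on the same strand shared a counting span with any of the 9, and noncoding genes and pseudogenes were not checked. No annotated member has more than 1 annotated 3' end.

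The input library held 9243831 reads and the sorted library 4709432, and protein-coding genes took 98.4% and 97.1% of them. Of the 9 intestinal markers measured, sorted nuclei had 6 called at least 2-fold higher and 0 called lower, against 13.6% and 4.13% of all genes tested, and their summed level was 10963 RPM (reads per 1000000 reads assigned to protein-coding genes) in input and 13742 in sorted nuclei. Among the most read of them, act-5, the actin of intestinal microvilli, stood at 1.57 of its input level, and the yolk protein genes vit-6 and vit-2 at 0.759 and 0.739. The metallothionein gene mtl-2 was below the minimum. The summed levels of markers of other tissues were 3898 and 1546 for hypodermis, 3193 and 1822 for body wall muscle, 254 and 112 for pharynx, 128 and 242 for neurons, 1387 and 578 for germ line and oocytes, 309 and 94.7 for sperm, and 110.0 and 41.1 for coelomocytes. None of these other lists had a member at 0 reads in either library, and in sorted nuclei col-19 of the hypodermis stood at 673 RPM and tnt-2 of muscle at 1256 RPM. Single members called higher in sorted nuclei were rol-6 of the hypodermis list, unc-54 of muscle, snb-1 of neurons and gld-1 of the germ line, at 2.29, 2.67, 2.44 and 3.20 of input. Called lower were 4 genes of the hypodermis list, 1 of muscle, 0 of neurons and 2 of the germ line. Reads from any transgene of JM149 were not separated from those of these genes. The part of other tissues in the lysozyme values was not tested.

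Together the 9 genes gave 41868 input and 40584 sorted reads, which is 0.460% and 0.888% of all gene reads. Levels were not divided by gene length, since the method counts 3' ends, and priming inside transcripts was not tested. Their summed level went from 4604 RPM in input to 8877 RPM in sorted nuclei, a ratio of 1.93 (95% interval 1.90 to 1.95). A gene was called higher when the lower bound of its ratio was at least 2, and a 4-fold call was set beside it. In bulk RNA of this kind, fewer nuclei of a type and less RNA per nucleus cannot be told apart.

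The gene with the largest ratio among the 9 was lys-2, whose level was 701 RPM (684 to 718) in the input library and 2979 RPM (2929 to 3030) in the sorted one. Its reads numbered 6375 and 13620, and its ratio of 4.25 (4.13 to 4.38) was called at 2-fold and at 4-fold. It was thereby the only one of the 9 genes called at 4-fold, a call made for 4.69% of the 10814 genes with at least 20 reads. The 4-fold call ended when the position with most reads was left out of every gene, at 3.97 (3.82 to 4.12), while the 2-fold call held. Of these genes, 91.2% had a lower ratio than lys-2. By sorted reads lys-2 ranked 45 among them and by input reads 238.

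Next came lys-8, a gene of lower abundance, which went from 66.3 RPM (61.1 to 71.8) to 183 (170.5 to 195). Its 603 input and 835 sorted reads gave a ratio of 2.75 (2.48 to 3.06), called at 2-fold. For lys-3, the neighbour of lys-2, the level was 712 RPM (695 to 729) in the input library and 1576 RPM (1540 to 1613) in the sorted one. Its ratio of 2.21 (2.14 to 2.29) was called at 2-fold, except when reads beyond the annotated end were not counted, which gave 2.02 (1.94 to 2.10). Of the 1723 input and 2339 sorted reads of lys-3 beyond that end, 1686 and 2282 lay 1 nt past it. Positions are uncertain by a few nt, so that setting may cut off a site at the end itself. In all, 3 of the 8 members with at least 20 reads were called at least 2-fold higher, against 13.6% of all genes tested, and 0 were called lower, against 4.13%. At 4-fold 0 were lower, against 0.314%.

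A pair of genes lay at the 2-fold line without a call. The level of lys-1 was 694 RPM (677 to 712) before the sort and 1430.3 RPM (1396 to 1465) after it, a ratio of 2.06 (1.99 to 2.13). Its lower bound passed 2 with only reads near annotated ends counted, at 2.17 (2.10 to 2.25). The scale of each library then also held only such reads. On the main scale, the site of lys-1 at the annotated end gave 2.08 (2.005 to 2.15). The bound also passed 2 with the 10 most-read genes of each library left out of the scale, at 2.16 (2.08 to 2.23). The invertebrate-type gene ilys-3 went from 46.8 RPM (42.5 to 51.5) to 97.8 (88.9 to 107), a ratio of 2.09 (1.82 to 2.39). It was called under none of the 12 alternatives run. Those that changed the minimum of reads or the reads added before the log2 could not alter its ratio or interval. The levels of lys-1 and ilys-3 were both higher in the sorted library, with counting intervals that did not overlap.

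The most abundant lysozyme gene of the input library, lys-7, stood at nearly the same level in both. Its 21515 input reads gave 2366 RPM (2334 to 2398), and its 11844 sorted reads gave 2591 RPM (2544 to 2638). The ratio was 1.10 (1.07 to 1.12), close to that of the median gene, whose log2 ratio was 0.044 against 0.13 for lys-7. Of all genes tested, 53.2% had a lower ratio than lys-7.

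The cluster of lys-4, lys-5 and lys-6 was rare in both libraries. For lys-4 the input level was 15.3 RPM (12.8 to 18.05) and the sorted level 17.3 RPM (13.7 to 21.5), a ratio of 1.13 (0.847 to 1.50). The gene lys-5, with 11 input and 9 sorted reads, just met the minimum of 20 reads, and its ratio of 1.63 had an interval from 0.596 to 4.32. The 10 input and 7 sorted reads of lys-6 fell below the minimum, at 1.10 and 1.53 RPM. For lys-6 the ratio was 1.39 (0.450 to 4.05), so the intervals of both lys-5 and lys-6 held 1 and reached past 4.

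**Figure D1:**
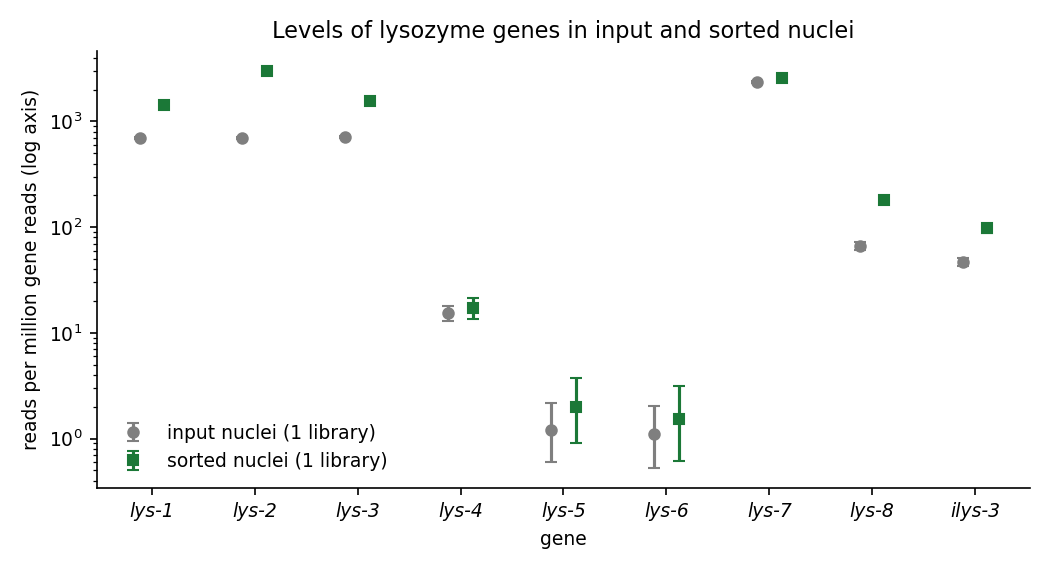
Level of each of the 9 lysozyme genes in RPM (log axis) in the input library (grey circles) and the sorted library (green squares), with exact 95% Poisson intervals of the counts as bars. The points of lys-1, lys-2, lys-3, lys-8 and ilys-3 lie higher in sorted nuclei with intervals apart. Those of lys-7 lie close together at 2366 and 2591, also with intervals apart, and lys-5 and lys-6 lie near 1 to 2.

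The order of the levels differed between the libraries. In input, lys-7 led, at 3.32 times (3.23 to 3.42) the reads of lys-3, and lys-3, lys-2 and lys-1 followed with neighbouring counts that did not differ beyond counting error. The ratio of lys-3 over lys-2 there was 1.02 (0.981 to 1.05), and that of lys-2 over lys-1 was 1.01 (0.975 to 1.05). In sorted nuclei lys-2 led, at 1.15 times (1.12 to 1.18) the reads of lys-7, with lys-3 next and lys-1 after it, and these neighbours differed. In both libraries the order ended with lys-8, ilys-3, lys-4, lys-5 and lys-6, of which lys-5 and lys-6 did not differ.

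**Figure D2:**
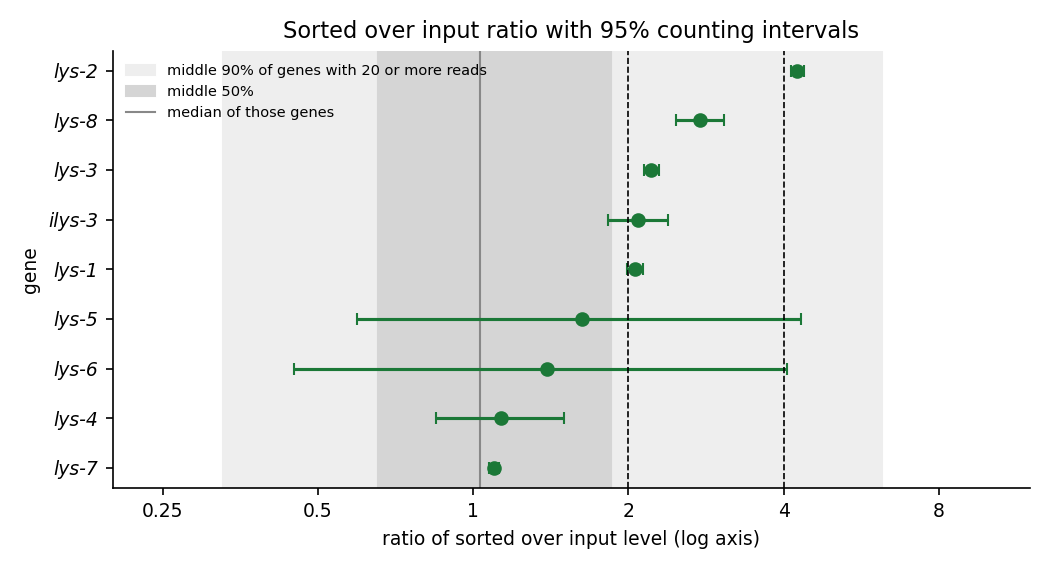
Ratio of the sorted over the input level of each gene (points, log axis) with exact 95% binomial intervals, ordered by ratio, over the middle 50% (dark band, 0.654 to 1.85) and middle 90% (light band, 0.327 to 6.20) of the 10814 genes with at least 20 reads. Dashed lines mark 2-fold and 4-fold. Only lys-2 lies wholly to the right of the 4-fold line, lys-8 and lys-3 lie to the right of the 2-fold line, and lys-7 and lys-4 lie near the median line.

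Relations between the 9 genes do not depend on how the libraries were scaled. The share of lys-7 in the reads of the 9 genes was 51.4% in the input library (50.9 to 51.9) and 29.2% in the sorted library (28.7 to 29.6), with exact Clopper-Pearson intervals. That of lys-2 was 15.2% (14.9 to 15.6) and 33.6% (33.1 to 34.0). By contrast lys-1, with 15.1% and 16.1%, and lys-3, with 15.5% and 17.8%, moved by a few percentage points at most. The reads of lys-2 relative to lys-7 were 3.88 times (3.74 to 4.03) as many in sorted as in input nuclei, and those of lys-1 and lys-3 relative to lys-7 were 1.88 times (1.80 to 1.96) and 2.02 times (1.94 to 2.11) as many.

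**Figure D3:**
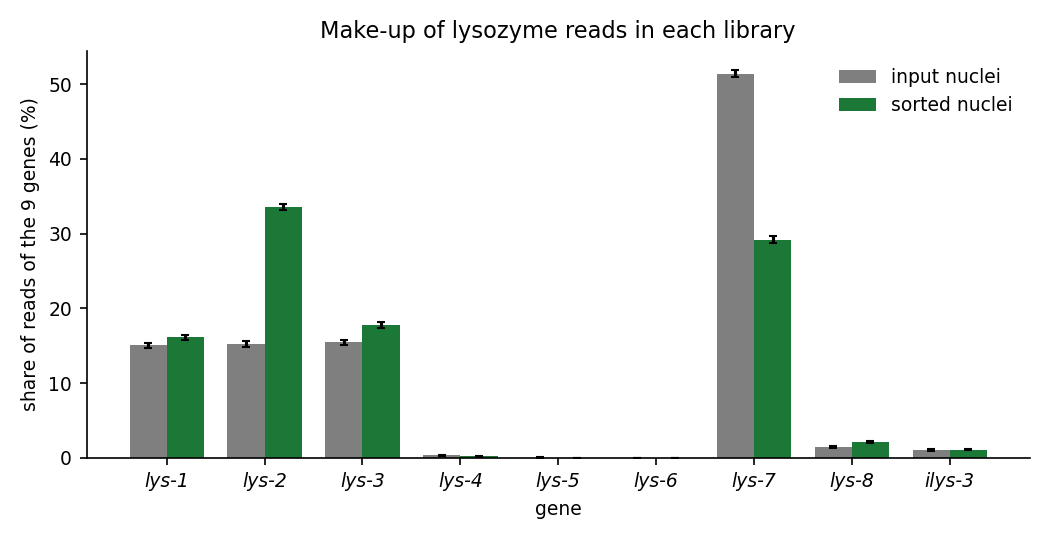
Share of each gene in the reads of the 9 lysozyme genes (bars, percent, from 0) in the input library (grey) and the sorted library (green), with exact 95% binomial intervals. The bar of lys-7 is lower in sorted nuclei, 29.2% against 51.4%, and that of lys-2 is higher, 33.6% against 15.2%.

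Within the cluster on V, the change in lys-2 was 2.06 times (1.97 to 2.16) that of lys-1 and 1.92 times (1.84 to 2.01) that of lys-3, while lys-3 and lys-1 differed by 1.07 times (1.02 to 1.13). Of all 36 pairs of members, 19 had an interval that left out 1 and 17 did not, with no adjustment for the number of pairs. Among the 8 pairs of neighbours in the order of ratios, 2 differed, lys-2 from lys-8 at 1.54 (1.38 to 1.72) and lys-8 from lys-3 at 1.24 (1.11 to 1.39). Intervals of the 17 other pairs, 14 of which involve lys-5 or lys-6, held 1, which does not show that those genes changed alike.

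Reads of most members ended where the annotation ends the gene. Within 24 nt of the annotated end lay 97.4% of input and 98.2% of sorted reads of lys-1, 99.3% and 99.4% of those of lys-2, and 96.9% and 96.5% of those of lys-7. Over all genes these shares were 78.5% and 75.1%. In lys-2 the reads lay over several adjacent positions, and the ratio at each of the 7 positions with at least 100 reads ran from 3.93 to 4.65. In lys-7 it ran from 0.856 to 1.52 over 14 such positions, and in lys-1 from 1.80 to 2.43 over 5. In lys-3 it ran from 1.49 to 2.82 over 11. Positions within a gene are not replicates, so these ranges only describe the spread within each gene.

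Among the 7 members with at least 20 reads in each library, lys-3 was the only one in which a pair of sites past the stop codon each held at least 10% of the reads. The proximal site lay 39 nt before the annotated end and 76 nt past the stop codon, at position 10282110 of chromosome V in the files' own coordinates, and the distal site 1 nt beyond the annotated end, at 10282070. Of the input reads the proximal site held 67.9% (66.7 to 69.0), and of the sorted reads 60.9% (59.8 to 62.0). The distal site held 31.9% (30.7 to 33.0) and 38.7% (37.6 to 39.9). Both sites were higher in sorted nuclei, the proximal from 483 to 959.6 RPM (a ratio of 1.99, interval 1.90 to 2.07) and the distal from 227 to 610.3 RPM (2.69, interval 2.54 to 2.85). The distal share was thus 6.88 percentage points larger in sorted nuclei, with intervals apart but short of the 20 points set for a shift.

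Minor sites in lys-8, ilys-3 and lys-4 were kept through the sorted library alone, where they held at least 5% of reads, so the direction of their difference was set by that minimum and their shares are only a description. In ilys-3 the site lay 48 nt before the annotated end, close to the end of the coding sequence, and held 4.23% of input reads (2.52 to 6.60) and 10.5% of sorted reads (7.83 to 13.7), from 18 and 47 reads. In lys-8 the kept site was placed 125 nt before the annotated end, 17 nt inside the coding sequence. It held 2.16% (1.15 to 3.66) and 5.51% (4.06 to 7.28), from 13 and 46 reads. These reads were a sum over scattered positions without a clear peak, with 1 input and 7 sorted reads at the named position itself. A single position between this site and the main site held more, 9 input and 11 sorted reads. The main site of lys-8 held 88.1% and 87.4%, with overlapping intervals. In lys-4 a site 5 nt beyond the annotated end had 0 of 139 input reads and 7 of 79 sorted reads, 8.86% (3.64 to 17.4), and its main site 20 nt before that end held 97.8% and 87.3%. The sequence around these positions was not analysed here.

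No member passed the threshold for a shifted site. In each library 7 members had at least 20 reads, and of these 4 had several sites and 0 were shifted, against 16.3% of the 3978 genes with several sites. The genes lys-1, lys-2 and lys-7 had 1 kept site each. Reads before the 3' UTR, in coding sequence or introns, made up 8.46% of the input reads of lys-8 (6.36 to 10.97) and 9.22% of its sorted reads (7.35 to 11.4), and 0.455% and 0.477% of those of lys-2. In ilys-3 they made up 4.93% (3.08 to 7.44) and 10.96% (8.22 to 14.2), mostly at its minor site near the stop codon. In lys-1 the shares were 2.17% (1.82 to 2.56) and 1.48% (1.20 to 1.81). The intervals of ilys-3 and of lys-1 were apart, in opposite directions.

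**Figure D4:**
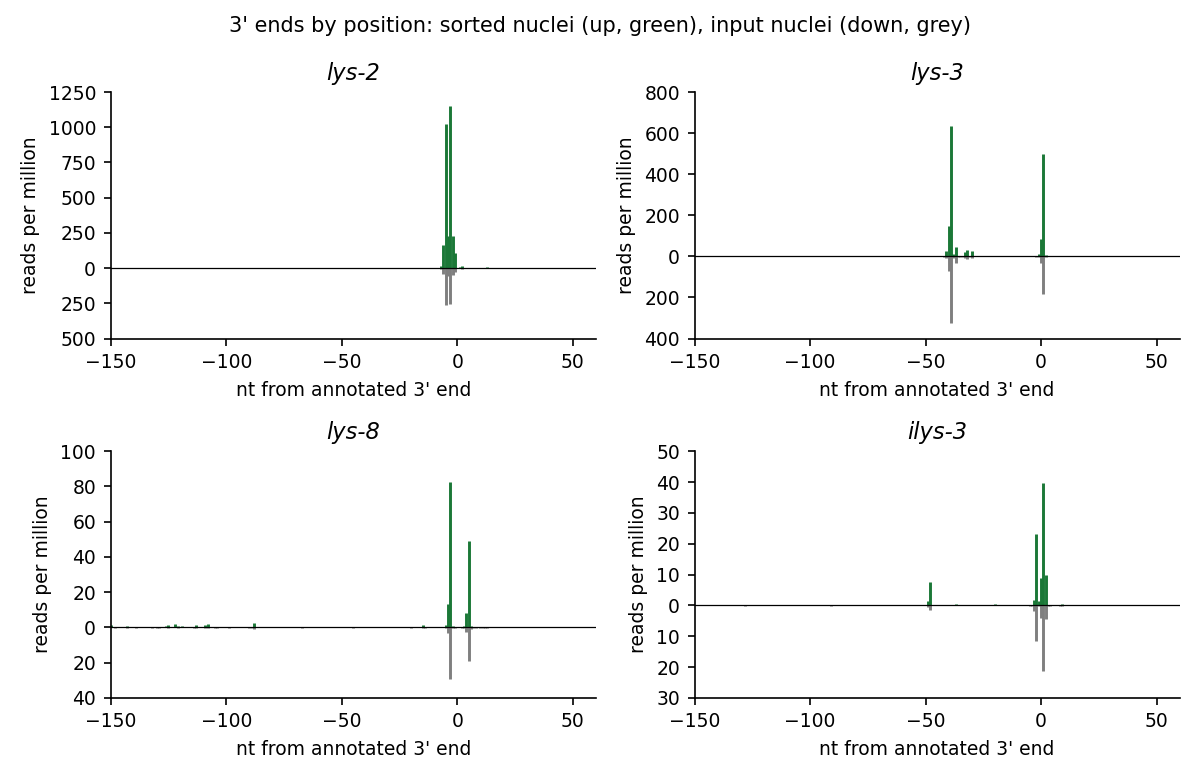
RPM at each position by distance in nt from the annotated 3' end for lys-2, lys-3, lys-8 and ilys-3, with the sorted library drawn upward in green and the input library downward in grey. In lys-3 a site 39 nt before the annotated end and a site at the end are seen in both libraries, lys-2 has 1 group of adjacent positions, and ilys-3 has a minor site 48 nt before the end.

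Of the 7 other annotated lysozyme genes, 4 had at least 20 reads, and 1 of these, ilys-4, was called higher. Its 17 input reads and 120 sorted reads stood for 1.87 and 26.2 RPM, with 14.04 as the ratio (8.41 to 24.9). The others measured were ilys-2 at 1.51 (1.41 to 1.63), ilys-5 at 0.868 (0.717 to 1.05) and lys-10 at 1.99 (1.07 to 3.71), none of them called. The genes ilys-1, with 3 and 9 reads, and ilys-6, with 0 and 5, were below the minimum. In lys-10 and ilys-1, 0% of reads in either library lay within 24 nt of the annotated end. Their positions with most reads lay 39 and 74 nt beyond it. Of the 5 sorted reads of ilys-6, 4 lay at a single position 157 nt beyond its annotated end. For lys-9 there were 0 reads in both libraries, which, with 3 reads as the floor for a count of 0, allows up to 0.330 RPM in input and 0.656 in sorted nuclei.

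Other gut genes are given from lists drawn up by name, with earlier results of these data already known. Of 25 secreted antimicrobial effectors 22 were measured, 6 were at least 2-fold higher and 0 lower, against 13.6% and 4.13% of all genes for these and the next lists, with a median log2 ratio of 0.70, against 0.044 for all genes and 1.05 for the 8 lysozyme members measured. The saposin-like gene spp-8 stood at 1.66 (1.62 to 1.70), the C-type lectin gene clec-85 at 2.13 (2.07 to 2.19) and was called, and the thaumatin-like gene thn-2 at 0.793 (0.766 to 0.820). Of 18 gut hydrolases measured, 8 were higher and 0 lower, with a median of 0.91. Among these the aspartyl protease gene asp-5 stood at 1.14 (1.12 to 1.15), the cathepsin B-like gene cpr-1 at 2.14 (2.10 to 2.19) and asp-3 at 2.17 (2.12 to 2.22), the last pair called. The 16 lysosome genes had 6 higher, 0 lower and a median of 0.28, with lmp-1, a lysosomal membrane protein gene, called at 2.13 (2.11 to 2.16), the cystinosin gene ctns-1 at 0.670 (0.638 to 0.704) and the acid ceramidase gene asah-1 called at 2.74 (2.58 to 2.90).

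Regulators of gut immune genes were mostly rare. Of 22, all measured, 8 were at least 2-fold higher and 0 lower (13.6% and 4.13% over all genes), with a median log2 ratio of 1.02 beside 0.044 for all genes. The kinase gene akt-1 of the insulin pathway stood at 0.757 (0.722 to 0.793), the transcription factor gene atf-7 at 1.58 (1.43 to 1.74), and sma-6, a type I receptor of the DBL-1 pathway, at 5.72 (4.86 to 6.75), called at 4-fold. Chosen after their values were seen, the intestinal GATA factor gene elt-2 stood at 3.20 (2.47 to 4.17) and daf-16 at 3.09 (2.46 to 3.89), both called, while the p38 kinase gene pmk-1 stood at 1.15 (0.565 to 2.25) with few reads, 26 and 15.

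Over the 2 libraries, the genes closest to lys-2 in level were vha-20, F54D5.3 and T07H8.11, by the distance between their log2 RPM values in input and sorted nuclei. The distances were 0.208, 0.372 and 0.529. The levels of vha-20 were 756 RPM in input and 3369 in sorted nuclei, a ratio of 4.46 (4.33 to 4.59), while F54D5.3 stood at 2.95 (2.87 to 3.04) and T07H8.11 at 2.60 (2.53 to 2.67).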

How the data were processed

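For each strand and position, the authors deposited raw, whole-number counts of reads. The submitters' processing notes name TopHat. Its version, the genome build, read filters and handling of reads that match several genes were not stated, so reads of similar lysozyme genes could have been divided between them. Per the labels' protocols, RNA was primed with 24 T, amplified as antisense RNA, and amplified by 12 cycles of PCR. Reads carry no molecular identifiers, so copies of 1 molecule cannot be told apart, and intervals and floors cover counting error only.

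File positions differ from WBcel235 (Ensembl release 115). In each of 203 windows of 0.5 Mb, the commonest offset between positions with at least 10 reads and annotated protein-coding 3' ends was added to file positions. It was 1 to 32 nt in the 5 windows holding members, where 27.4% to 48.3% of positions lay within 3 nt of an annotated end after it. Positions relative to genes are thus uncertain by a few nt. Reads were summed per gene over its span plus 300 nt downstream, with the nearest annotated end deciding overlaps. A gene was measured with 20 or more reads in all. The log2 ratio adds 0.5 reads to each library. Ratios have exact binomial 95% intervals, and a count of 0 allows up to 3 reads. Calls needed the whole interval past 2-fold, or 4-fold for the stricter call.

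Sites were the position with most reads and free positions within 24 nt, kept with at least 5% of a gene's reads in either library, in genes with at least 20 reads in each. A shift needed 20 percentage points and intervals apart. Alternatives concerned the scale (edgeR 4.0.16 for TMM, DESeq2 1.42.0 for median of ratios, or the whole library), the extension, reads counted, offsets, minimums, pseudocount and site settings. Interval and offset code was tested on simulated data with scipy 1.17.1. Beside the members, genes named were the other lysozyme genes, the 3 with most reads in each list, the nearest neighbours and the 3 genes closest to lys-2. Chosen after their values were seen were elt-2, daf-16, pmk-1, mtl-2, unc-54 and gld-1. Members and lists were chosen with earlier results of these data known. No nucleotide or protein sequence was used here.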

Additional observations from a re-analysis of the deposited data

How the results depend on the processing

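The count of members at least 2-fold higher, 3, ran from 2 with no extension to 4 with only reads near annotated ends or with the 10 most-read genes of each library left out of the scale, and the count of 0 members lower or with a shifted site stayed at 0, under each alternative run. With the position with most reads left out of every gene, 0 members were at least 4-fold higher, and of 8714 genes then tested (10814 otherwise) 265 were at least 2-fold lower (447 otherwise), 326 at least 4-fold higher (507) and 11 at least 4-fold lower (34). The last count was also 11, of 8386 genes, with only reads within 24 nt of an annotated end. The median log2 ratio of measured members, 1.05, was 1.103 with no extension, 1.118 with only reads near annotated ends, 1.144 without the top position, each over 7 members, since lys-5 then fell below the minimum, and 1.118 with the 10 most-read genes of each library left out of the scale, an alternative chosen after seeing the data. In lys-3, counting only reads near annotated ends leaves out its proximal site and also changes the scale, and the ratio was then 2.81 (2.66 to 2.98). Shifted genes numbered 324 of 3148 with several sites, against 650 of 3978, when sites before the stop codon were left out. Other scalings moved log2 ratios by -0.038 (TMM), -0.038 (median of ratios) and -0.019 (all reads). No member reversed direction in the alternatives run. No paired analysis was possible because each group holds 1 library and the labels give no replicate numbers. Depth limits lys-5 and lys-6, with 20 and 17 reads in all.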

Other observations

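Genes next to the lysozyme genes were counted as well, with no test of a difference from them. On either side of lys-7, the chemoreceptor genes srbc-30 and srbc-33 had 0 input reads each, and 0 and 1 sorted reads. Beside lys-1, Y22F5A.11 had 0 and 1 reads, and beside lys-3, B0024.3 had 2 and 1. Past lys-8, the phosphatase gene cdc-14 stood at 0.504 (0.342 to 0.727) of its input level. Next to lys-6, F58B3.4 stood at 1.45 (1.14 to 1.85), and next to lys-4, dsl-5 had 3 and 2 reads. The cadherin gene cdh-10, beside ilys-3, had 16 input and 13 sorted reads.

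Reads on the strand opposite the members were few. Over the span of lys-1 there were 33 in input and 13 in sorted nuclei, over lys-8 13 and 3, over lys-3 8 and 0, over lys-7 6 and 0, over lys-2 5 and 7, and over lys-4 1 and 1. For lys-5, lys-6 and ilys-3 there were 0 in both. No sorted over input ratio of these reads had an interval above 1.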
